A study of Mus musculus with 6 samples.

Results

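The comparison set the 2 later mast lineage libraries of a mouse embryo series, mast cell progenitors (MCPs) from the limb at E14.5 and cells from the skin at E16.5, against the 2 early ones, MCPs from the fetal liver and from the limb, both at E11.5. These are 4 of the 6 libraries of the series, and the other two, erythro-myeloid progenitors (EMPs) and a library labelled macrophages, both from the E11.5 liver, served only to look up levels. Every library came from embryos of a C57BL/6xFVB background. Cells of all groups were sorted with a Csf1r-iCre fate-mapping model, a Cre recombinase under the control of the gene for the macrophage colony-stimulating factor receptor, so the early cells carried the same transgene as the late ones. The labels state neither the sort gates nor a time of induction nor how many embryos were pooled. The skin library is titled as progenitors but described as mast cells. Each group had 1 library, and the libraries of a side differed in tissue, age or both, so they were not replicates. Limb at E14.5 and limb at E11.5 formed the only late and early pair from the same tissue.

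Mast cells are tissue-resident cells that store histamine, serotonin, heparin and a set of serine proteases and carboxypeptidase in cytoplasmic granules. They depend on the receptor Kit and release their granules when IgE bound to its high-affinity receptor is cross-linked. In the embryo they derive from yolk sac and later progenitors that pass through the fetal liver, enter peripheral tissue as agranular progenitors and fill their granules there. The change from progenitor to granulated cell is the step that a late against early comparison spans, together with any change of tissue.

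RNA was measured as FPKM, fragments per kilobase of transcript scaled to the mapped fragments of the library, a level that can be compared between genes. Values were divided by a size factor for each library and taken as log2(FPKM + 1), called scaled log2, while single levels are given as the deposited FPKM. A gene was called apart when both libraries of a side lay above both of the other by at least 1 on that scale, a 2-fold gap between the nearest values, and when its FPKM was at least 10 in any of the 4. The gap between the nearest values is called the separation. The size factors were 1.24 for limb E14.5, 0.573 for skin, 1.27 for liver and 1.15 for limb E11.5. Depth, estimated from the spacing of the FPKM values, was 11.75, 9.45, 12.55 and 8.9 times 1000000 fragments in that order. For a 2 kb transcript with a listed value of 0, 3 fragments allow up to 0.128, 0.159, 0.12 and 0.169 FPKM, counting error only.

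Of the lineage genes, Kit, Ms4a2 and Cpa3 were present in all 4 libraries, while others were low or listed at 0 in some. Gata2 was listed at 0 and Itgb7 read 1.39 FPKM in skin. Mitf read 0.30 in liver and 0.95 in limb E11.5. Kit read 284 FPKM in limb E14.5 and 239 in skin, against 95.3 in liver and 155 in limb E11.5. Ms4a2, the beta chain of the IgE receptor, read 41.0 and 47.3 in limb E14.5 and skin, against 23.8 and 28.6 in liver and limb E11.5. Csf1r itself stood at 0 and 0.13 in the late libraries and at 0.43 and 0.50 in the early ones, against 34.1 in the library labelled macrophages. The skin library stood apart from the rest in shape. It had 5675 genes with an FPKM of at least 1, against 8554 to 8754 in the other libraries compared, it listed 140 of the genes tested at 0, against 19 to 23, and Cpa3 made up 16.1% of its FPKM sum. Across 3486 genes its profile was less like the others (Pearson r of scaled log2 values 0.606 with limb E14.5, 0.421 with liver and 0.441 with limb E11.5) than the limb pair was to each other (0.807). These correlations are across genes, which are not independent replicates.

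Of 3486 genes tested, 106 (3.04%) were higher in both late libraries and 95 (2.73%) were lower. With 2 libraries a side an exact two-sided permutation test cannot go below 0.333, so no p-value is given and the calls describe these 4 libraries only. In bulk samples fewer cells of a type and less RNA per cell cannot be told apart. The median difference over all tested genes, the mean of the late side minus the mean of the early side, was −0.26 on the scaled log2 scale. It was −0.71 on unscaled FPKM and −0.42 on values rescaled to a common sum (TPM). Medians of gene groups are to be read against −0.26, and their counts of genes apart against 3.04% and 2.73%. Limb E14.5 minus limb E11.5 had a median of 0.00, and skin minus limb E14.5 one of −0.40. Without the skin library 161 genes were higher and 117 lower, and 87 and 95 of the original calls were among them. Without limb E14.5 the counts were 407 and 947, without liver 144 and 167, and without limb E11.5 226 and 220, so the number of calls depended on each of the 4 libraries. With fewer libraries the rule asks for less, which by itself can raise the counts. No gene was apart in the opposite direction in any of these. Leaving out a library can narrow the gap of a gene only through the size factors. The absence of reversals, and the separations kept by the lost genes named next, were thus all but fixed by the rule. The 19 higher calls lost without skin and the 25 lower calls lost without liver kept a separation of at least 1 and were lost to the FPKM filter alone. The genes nearest to the threshold were Copz2 with a separation of 1.01 inside and Osbpl8 with 0.99 outside on the higher side, and Stk38 with 1.01 and Zfp868 with 0.98 on the lower side.

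**Figure D1:**
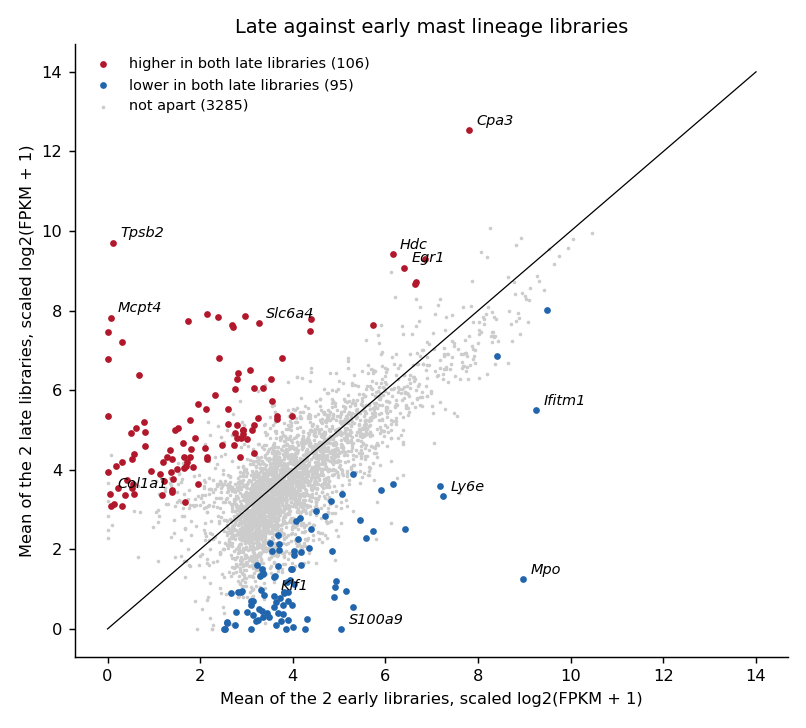
Each point is 1 of 3486 genes, with the mean of the 2 late libraries (vertical) against the mean of the 2 early ones (horizontal), both as scaled log2(FPKM + 1), and the line marks equal values. The 106 higher genes in red reach up to Cpa3, and the 95 lower genes in blue reach out to Mpo and Ifitm1.

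The granule proteases held the widest gaps. Of 18 protease and carrier genes measured, 14 passed the FPKM filter, 9 of them were higher in both late libraries and 1, Ctsl, was lower. Their median difference was 4.42 (3.57 in the limb pair). Tpsb2, a tryptase gene of connective tissue mast cells, read 605 and 815 FPKM in limb E14.5 and skin, against 0 and 0.21 in liver and limb E11.5. Tpsab1, a neighbouring tryptase gene, read 195 and 111 in the late libraries and was listed at 0 in both early ones. Cma1, the gene of the alpha-chymase, stood at 31.9 and 35.4 against 0 in both. These chymase and tryptase genes were at high level in each late library and at or near 0 in each early one. Mcpt4, a chymase of connective tissue mast cells, read 86.8 in limb E14.5 and 412 in skin, against 0 in liver and 0.12 in limb E11.5. Skin lay above limb E14.5 for Mcpt4, whereas Mcpt2, a chymase-family protease of mucosal mast cells in the adult mouse, was higher in limb E14.5 (44.5) than in skin (4.60), against 0 and 0.61 in liver and limb E11.5. Prss34, a serine protease of mast cells and basophils, read 60.4 and 12.1 against 0.82 and 0.48. Tpsg1, a membrane-anchored tryptase gene, read 45.7 and 19.5 against 0 and 2.26.

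Cpa3, the carboxypeptidase that shares the granule with the chymases, was already present early. It stood at 1856 FPKM in limb E14.5 and 13494 in skin, against 172 in liver and 417 in limb E11.5. Skin was the highest of the 4 and liver the lowest. The late minus early difference of Cpa3 was 4.74, and 2.05 in the limb pair, a 4.45-fold ratio of FPKM. Serpinb1a, an inhibitor of serine proteases, read 73.6 and 374 in the late libraries, against 8.31 and 5.20 in the early ones. It was also found in EMPs at 49.3 and in the library labelled macrophages at 42.7. Srgn, the proteoglycan core on which the proteases are packed, did not separate the sides, with 700.3 and 1183 against 227 and 592. Gzmb, granzyme B, ran the other way in part, at 12.3 and 0 in limb E14.5 and skin, against 21.5 and 56.4 in liver and limb E11.5, and missed the rule since limb E14.5 and liver were close. Ctsl, cathepsin L, was lower late, at 5.09 and 1.13 against 22.2 and 15.3. Tryptase and chymase genes are close copies of each other, so reads may have been split among them and their single values are uncertain.

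The protease genes that were apart lie close together on the GRCm38 genome. Prss34, Tpsab1, Tpsb2 and Tpsg1 span chromosome 17 from 25298394 to 25374442, a stretch of 76049 bases. Cma1, Mcpt2 and Mcpt4 span chromosome 14 from 55941451 to 56062313. Cpa3 lies alone on chromosome 3 at 20215620 to 20242181. The 250 bases before the start of Cpa3, Mcpt4 and Cma1 are shown because these genes had the largest differences between the means of the sides (4.74, 7.75 and 5.36) among the proteases with an entry in the RefSeq promoter table, and that of Mpo because its difference (−7.72) was the largest in the other direction. All are RefSeq sequence of GRCm38.p6 on the strand of the gene, and capitals mark a GATA motif (AGATAA or TGATAA on either strand).
Cpa3 (chr3:20242182-20242431, minus strand): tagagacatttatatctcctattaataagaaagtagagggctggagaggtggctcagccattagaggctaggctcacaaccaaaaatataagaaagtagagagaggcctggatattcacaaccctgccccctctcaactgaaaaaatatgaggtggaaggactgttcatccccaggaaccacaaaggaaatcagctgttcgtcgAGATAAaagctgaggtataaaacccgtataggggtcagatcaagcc
Mcpt4 (chr14:56062311-56062560, minus strand): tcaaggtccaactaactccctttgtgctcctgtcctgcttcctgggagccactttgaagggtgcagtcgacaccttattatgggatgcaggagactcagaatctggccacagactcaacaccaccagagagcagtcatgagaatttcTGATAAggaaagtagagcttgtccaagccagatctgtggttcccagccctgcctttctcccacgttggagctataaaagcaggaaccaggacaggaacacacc
Cma1 (chr14:55944676-55944925, minus strand): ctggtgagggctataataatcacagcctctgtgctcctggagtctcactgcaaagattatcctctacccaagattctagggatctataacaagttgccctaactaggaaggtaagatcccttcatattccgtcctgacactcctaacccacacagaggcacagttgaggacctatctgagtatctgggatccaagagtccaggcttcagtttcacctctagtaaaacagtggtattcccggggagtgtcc
Mpo (chr11:87793534-87793783, plus strand): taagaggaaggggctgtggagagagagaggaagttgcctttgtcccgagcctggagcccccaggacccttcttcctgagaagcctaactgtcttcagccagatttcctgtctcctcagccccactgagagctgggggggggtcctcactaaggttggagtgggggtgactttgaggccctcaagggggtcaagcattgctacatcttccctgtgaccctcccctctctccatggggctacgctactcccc
The windows of Cpa3 and Mcpt4 each held 1 GATA motif, and those of Cma1 and Mpo held neither it nor the E-box letters CACGTG or CATGTG. Among the promoters of genes higher late, 16.2% of 68 held a GATA motif, against 16.7% of 54 for the genes lower late, 9.87% of 2696 for all tested genes and 17.0% of 27025 in the whole table. An E-box was held by 14 of 68, 7 of 54, 424 of 2696 and 4768 of 27025 in the same order. These are matches of letters in a short window, and binding was not measured.

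**Figure D2:**
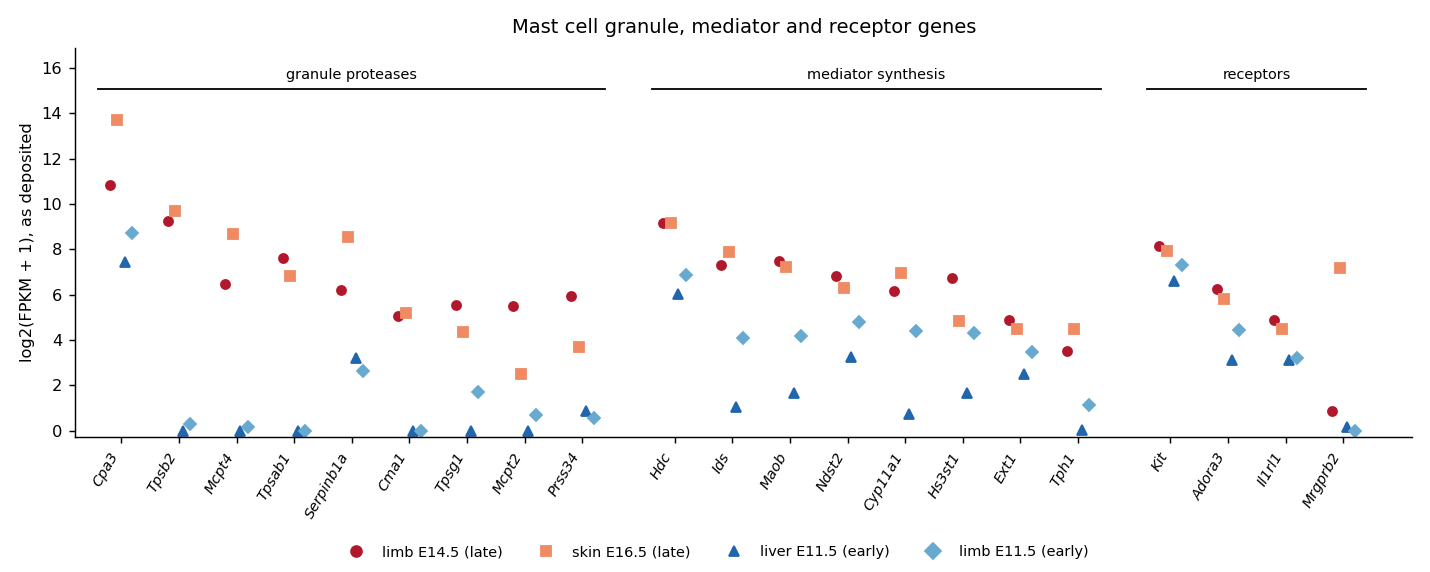
FPKM as log2(FPKM + 1) of mast cell granule, mediator and receptor genes (horizontal), with a symbol for each of the 4 libraries. The late symbols lie above the early ones for every protease and mediator gene drawn, while Kit leaves less than the 2-fold gap and Mrgprb2 is high in skin alone.

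In the list of amine, heparin and lipid mediator genes, many amine and heparin members followed the proteases. None of its leukotriene and prostaglandin genes that were tested was apart. The list was not one of synthesis alone, and Maob, Ids and the steroid gene Cyp11a1 were among its higher members. Of 25 genes measured, 17 passed the filter, 8 were higher late and none lower, with a median of 2.18 (1.30 in the limb pair), and 10 of the 25 were higher when the filter was dropped. Hdc, histidine decarboxylase, which makes histamine, read 564 and 579 FPKM in limb E14.5 and skin, against 63.7 and 114 in liver and limb E11.5. Tph1, tryptophan hydroxylase, which starts serotonin synthesis, read 10.5 and 21.4 against 0.03 and 1.19. Maob, a monoamine oxidase, read 179 and 146 against 2.15 and 17.2. The early limb lay above the early liver in all 3 of these amine genes, and the late values lay above both. The same order held for the heparin and heparan sulfate genes Ndst2, Hs3st1, Ext1 and Ids, but not for Ndst1 and Ext2. Ndst1 read 20.9 and 1.41 FPKM in limb E14.5 and skin, against 6.77 and 26.4 in liver and limb E11.5. Ext2 read 17.2 and 0 against 14.1 and 18.9, and neither of these was apart. Ndst2, the sulfotransferase that mast cells need for heparin, read 112 and 77.9 against 8.51 and 26.9. Hs3st1, a further sulfotransferase, read 106 and 27.8 against 2.11 and 18.8, though it was not apart on unscaled FPKM, and Ext1, which extends the sugar chain, read 28.6 and 21.7 against 4.61 and 10.1. Ids, iduronate sulfatase of the lysosome, read 158 and 238 against 1.06 and 16.2. Cyp11a1, which starts steroid synthesis, differed most between the early libraries among the 8, at 70.8 and 124 in limb E14.5 and skin against 0.67 in liver and 20.1 in limb E11.5. Slc18a2, the transporter that loads amines into granules, read 28.0 and 42.7 in limb E14.5 and skin, against 1.59 and 20.4 in liver and limb E11.5. It was not apart, since the limb pair was close. Enzymes of the leukotriene pathway did not separate the sides. Alox5 read 50.4 and 8.86 against 26.8 and 14.02, and Alox5ap 22.2 and 1.27 against 40.7 and 52.1.

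None of the IgE receptor and signalling genes tested met the rule. Over all tested genes 3.04% were higher and 2.73% lower, so a count of 0 of 12 says little about this group. By the mean difference, 6 of the 12 were higher late by at least 1 and 0 were lower by as much. Over all 3486 genes these counts were 357 and 676. Of 12 tested, 0 were higher and 0 lower, with a median difference of 1.08 (0.47 in the limb pair). Without limb E14.5, which leaves skin against the early pair, 7 were higher and 1 lower. Over all 3310 genes tested in that setting, 407 were higher and 947 lower. Fcer1a, the chain that binds IgE, was high in skin alone, at 2.19 FPKM in limb E14.5 and 21.9 in skin, against 1.55 and 1.26 in liver and limb E11.5. Fcer1g, the shared signalling chain, read 164 and 449 against 74.1 and 105. Both late values of Fcer1g lay above both early ones, but limb E14.5 and limb E11.5 were only 0.53 apart on the scaled log2 scale. Of 13 other receptor genes tested 4 were higher, Adora3, Il1rl1, Lilr4b and Cd200r1, and 0 lower, with a median of 2.43. Adora3, an adenosine receptor through which mast cell release is enhanced, read 74.8 and 54.6 against 7.57 and 20.8. Il1rl1, the receptor for the alarmin IL-33, read 28.2 and 21.1 against 7.60 and 8.31. Lilr4b, a receptor with near copies in the genome, read 5.62 and 97.9 against 1.40 and 0.54. Without skin its separation was 1.5, and it was no longer counted because its FPKM then stayed under the filter. Its paralog Lilrb4a read 0.36 and 26.6 against 0.98 and 0.28 and was not apart. Mrgprb2, the mouse receptor for cationic secretagogues of connective tissue mast cells, read 0.81 in limb E14.5 and 145 in skin, against 0.12 in liver and 0 in limb E11.5. Its paralog Mrgprb1 read 0.34 and 71.9 against 0 in both early libraries. Both of these receptors were therefore at a high level in skin only, and the rule left them out.

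The higher set also held genes outside the mast cell groups, of which a selection is given. Clec12b, an inhibitory C-type lectin receptor, read 70.2 and 69.2 FPKM in limb E14.5 and skin, against 0.05 and 1.68 in liver and limb E11.5, a separation of 4.56. Creb3l1, a transcription factor anchored in the endoplasmic reticulum, read 118 and 344 against 1.81 and 8.15. Pmp22, a small membrane protein known from myelin, read 16.4 and 486 and was listed at 0 in both early libraries. Skin was the higher late library for Creb3l1 and Pmp22, while for Clec12b the pair was level in FPKM and skin was 1.07 higher on the scaled log2 scale. Gnai1, an inhibitory G protein subunit, read 78.2 and 413 against 0.57 and 7.77, and Gpr65, a proton-sensing receptor, 110.3 and 343 against 4.57 and 14.3. Socs2, a brake on cytokine signalling, read 18.6 and 20.2 against 0.59 and 1.25. Itga9, an integrin alpha chain, read 19.9 and 30.6 against 0.16 and 0.90. Slc6a4, the serotonin transporter, read 39.6 and 740.0 against 8.14 and 13.1, and Slc7a5, a large neutral amino acid transporter, 145 and 241 against 20.2 and 29.2. Rab27b and Vamp2, of granule docking and fusion, were the 2 of 16 exocytosis genes tested that were higher. Rab27b read 35.7 and 39.9 against 1.88 and 7.80. Vamp2 read 11.7 and 3.95 against 2.47 and 2.89, and was not apart on unscaled FPKM or with a pseudocount of 5. Without limb E14.5 Vamp2 fell under the filter, with a gap of 1.15.

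Immediate early and related feedback genes formed a second large group. Of 24 tested of 38 in the table, 9 were higher late and none lower, with a median of 1.57 (1.86 in the limb pair). Egr1, a zinc finger factor induced within minutes of a stimulus, read 532 and 386 FPKM in limb E14.5 and skin, against 84.3 and 123 in liver and limb E11.5. Zfp36, which destabilises cytokine mRNAs, read 781 and 355 against 116 and 165. Nfkbia, the inhibitor of NF-kappaB, read 24.2 and 13.4 against 2.11 and 1.62. Limb E14.5 was the higher late library for 8 of the 9 by FPKM and for 5 of the 9 by scaled values. Tnfaip3, a ubiquitin-editing brake on the same pathway, read 130 and 23.1 against 20.1 and 6.03, and Egr3 48.1 and 5.06 against 3.87 and 1.69. Nfkbiz, a nuclear relative of Nfkbia, was higher in skin on both scales, with 45.4 and 90.3 against 10.8 and 4.60. Fos did not separate the sides, at 137 and 108 against 123 and 37.9, and Dusp1, a phosphatase of MAP kinases, missed the rule at 298 and 584 against 168.9 and 41.1. Nr4a1 read 104 in limb E14.5 and was listed at 0 in the other 3. The count of 9 was 5 on unscaled FPKM, where Tnfaip3 and Egr3 were lost, 8 with TPM and 12 without skin. Among cytokines Tnf, at 11.3 and 6.53 against 1.60 and 2.39, and Osm, at 22.6 and 3.43 against 1.36 and 0, were higher, and neither was apart with a pseudocount of 5. Without limb E14.5 both fell under the filter, with a gap of 1.98 for Tnf and 1.72 for Osm. Il13 read 67.9 in limb E14.5 and 1.70 in skin, against 0 in liver and 8.69 in limb E11.5, and was not apart.

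Fibrillar collagens were also among the higher genes, at low level. Col1a2 read 17.9 and 4.50 FPKM in limb E14.5 and skin, against 0.19 and 0.20 in liver and limb E11.5. Col1a1 read 17.6 and 3.65 against 0 and 0.10, and Col3a1 14.4 and 2.68 against 0 and 0.12. The collagens are products of fibroblasts, and the limb library carried more of them than the skin library. Without limb E14.5 none of the 3 passed the filter, while the gap of skin to the early libraries was 2.85 for Col1a2, 2.69 for Col1a1 and 2.29 for Col3a1. Of 20 connective tissue genes measured, 5 passed the filter and 3 were higher, and 6 of 20 were higher without the filter. The list as a whole summed to 125 and 21.6 FPKM in limb E14.5 and skin, against 9.6 and 18.6 in liver and limb E11.5, and 17 and 7 of its genes reached an FPKM of 1, against 2 and 2. Pdgfrb, a receptor of fibroblasts and pericytes, read 14.48 and 1.29 against 3.52 and 11.2. The part of connective tissue cells in these values was not tested. Markers of skin epithelium were at or near 0 in the skin library, with Krt5 and Krt14 at 0.10 each and a list sum of 0.2 FPKM over 15 genes. Perp, a p53 target of epithelia and the 1 member tested, was lower late, at 0.09 and 0 against 23.2 and 14.2. Muscle and cartilage genes summed to 0.1 there and 7.3 in limb E14.5.

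**Figure D3:**
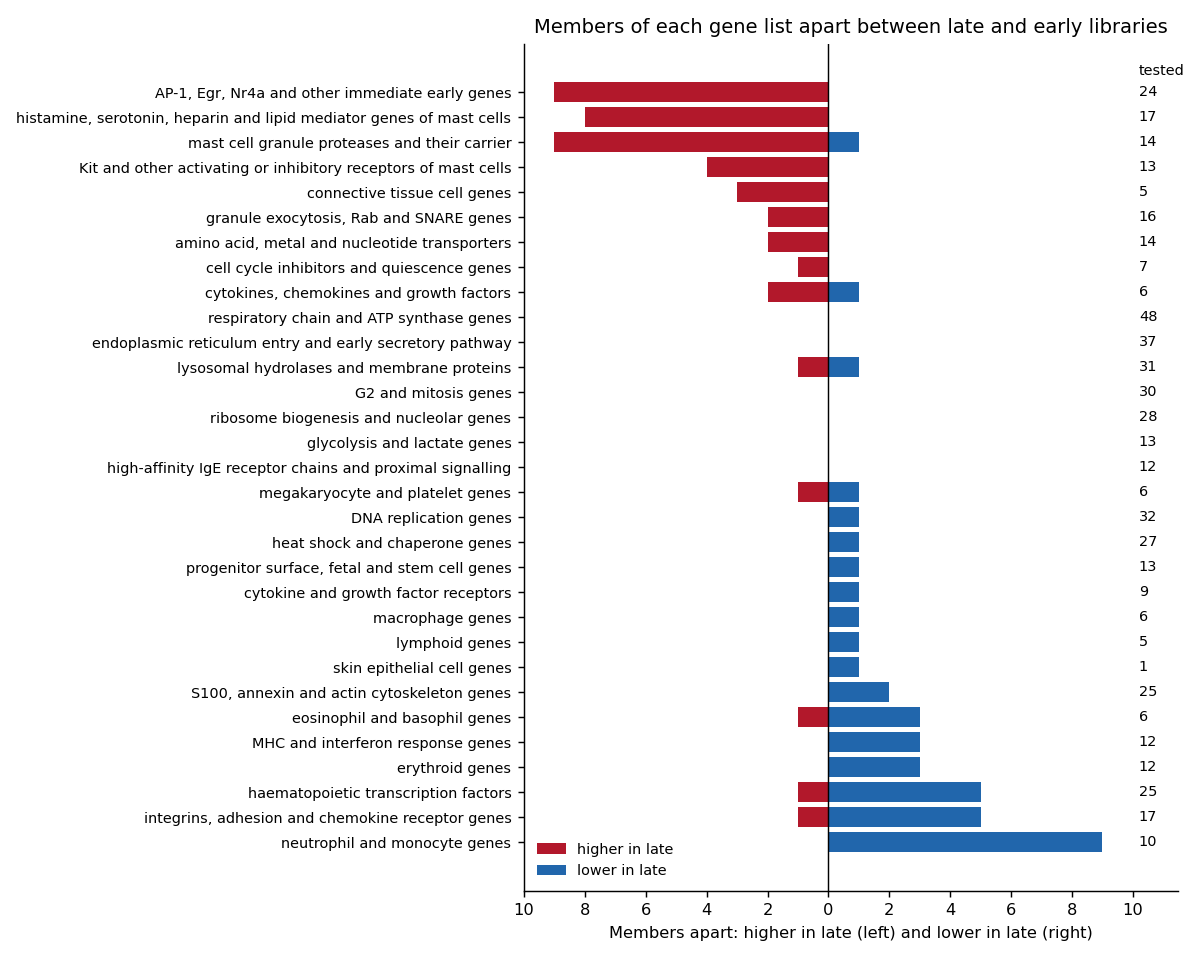
Number of members of each gene list that were apart, higher in late to the left in red and lower in late to the right in blue, with the number tested at the right edge. Lists with at least 1 member apart or at least 12 tested are drawn, and proteases and immediate early genes lead the left side with 9 each, neutrophil and monocyte genes the right side with 9.

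Few genes of growth and division met the rule in the 4 libraries. Of 32 DNA replication genes tested 0 were higher and 1, Rfc5, was lower. Of 30 mitosis genes, 28 ribosome biogenesis genes, 48 respiratory chain genes and 13 glycolysis genes none was apart. Over all tested genes 3.04% were higher and 2.73% lower, so these low counts say little about the groups. The median difference was −0.90 for replication, −0.79 for mitosis and −0.80 for ribosome biogenesis, against −0.26 over all genes. In the limb pair the same medians were 0.43, 0.23 and 0.35, and for skin minus limb E14.5 they were −1.92, −1.74 and −1.63. In summed FPKM limb E14.5 lay between limb E11.5 and liver for all 3 lists, and skin lay below all of them. With limb E14.5 left out, 24 of the replication, 18 of the mitosis, 21 of the respiratory chain and 12 of the ribosome biogenesis genes were lower in skin than in both early libraries. These counts are to be read against 947 of 3310 genes that were lower in that setting. Summed replication genes came to 1011 FPKM in limb E14.5 and 138 in skin, against 1039 and 726 in liver and limb E11.5. Of 40 replication-dependent and other histone genes tested, 7 were lower late and 0 higher, with sums of 1281 and 82.3 against 1533 and 2061. Gadd45a, a growth arrest gene, was the 1 of 7 cell cycle inhibitors tested that was higher, at 50.9 and 13.5 against 7.97 and 7.93, and it was not apart on unscaled FPKM. Cdkn1a, an inhibitor of cyclin-dependent kinases, read 57.1 and 15.2 against 11.3 and 22.0.

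Among the gene lists, that of neutrophil and monocyte genes had the most members lower late, and 39 of the 95 lower genes were on any list. Of 29 neutrophil and monocyte genes measured, 10 passed the filter, 9 of these were lower late and none higher, with a median of −3.29 (−2.72 in the limb pair), and 12 of 29 were lower when the filter was dropped. Mpo, myeloperoxidase of primary granules, read 1.25 and 1.03 FPKM in limb E14.5 and skin, against 878 in liver and 417 in limb E11.5. S100a9 and S100a8, the subunits of calprotectin, were listed at 0 in both late libraries. S100a9 read 70.8 in liver and 21.3 in limb E11.5, and S100a8 35.4 and 13.5. Elane, neutrophil elastase, read 0.10 and 0.12 in limb E14.5 and skin, against 14.7 and 15.1. All of these values were at or near 0 late and clearly above it in both early tissues. Prtn3, a serine protease of the same granules, read 0.09 and 0.12 against 14.8 and 6.67, and Ngp, a neutrophil granule protein, 0.39 and 0.10 against 17.7 and 6.86. Without the liver library 4 genes of the list were lower, since others, such as Prtn3, Ngp and Stfa1, fell under the filter with gaps of 2.41, 2.33 and 2.71. Levels were far higher still in the libraries outside the comparison, with Mpo at 8174 in EMPs and 3621 in the library labelled macrophages. Summed over the 29 genes the list came to 29.6 and 68.0 FPKM in limb E14.5 and skin, mostly Gstm1, against 1163 and 578 in liver and limb E11.5, and 11029 and 9840 in EMPs and the library labelled macrophages. Whether the early values came from MCPs themselves or from neutrophil or monocyte precursors in the sort was not tested.

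Of 6 eosinophil and basophil genes tested, 3 eosinophil granule genes were lower late and 1, Prss34, was higher, with a median of −0.31. Prg2, major basic protein, read 0 and 0.65 FPKM in limb E14.5 and skin, against 40.4 and 54.1 in liver and limb E11.5. Epx, eosinophil peroxidase, read 0.03 and 0.45 against 10.9 and 11.2, and Ear6, an eosinophil ribonuclease with near copies, 0 and 0.44 against 13.4 and 15.5. The early liver and the early limb were level for all 3. The library labelled macrophages held these genes at 5617 for Prg2, 737 for Epx and 1632 for Ear6. Lyz2, lysozyme of macrophages and granulocytes, was the 1 of 6 macrophage genes tested that was lower, at 1.11 and 1.05 against 55.1 and 23.3. Adgre1, an adhesion receptor that marks macrophages, lay under the filter, at 0.07 and 0 against 3.39 and 2.55. The alpha M integrin Itgam, the CD11b chain of granulocytes and macrophages, read 0.26 and 0.70 in limb E14.5 and skin, against 21.3 and 13.04.

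Erythroid genes were lower late in 3 of 12 tested, Car1, Car2 and Klf1, and higher in none, with a median of −2.26 (−0.42 in the limb pair). Car1, a carbonic anhydrase of red cell precursors, read 2.47 and 0 FPKM in limb E14.5 and skin, against 41.1 and 28.7 in liver and limb E11.5. Klf1, the erythroid Krüppel-like factor, read 0.87 and 0.50 against 21.3 and 8.27. The globins did not separate the sides, since liver alone was high. Hbb-b1 read 0.29 and 0 in limb E14.5 and skin, against 120 in liver and 0.19 in limb E11.5. Without limb E11.5 there were 9 erythroid genes lower, and without liver 1. Over all genes 220 of 3290 and 167 of 3112 were lower in these settings. The erythroid list summed to 174 and 87.2 FPKM in limb E14.5 and skin, against 603 and 228 in liver and limb E11.5, and the part of erythroid cells in the liver sort was not tested.

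**Figure D4:**
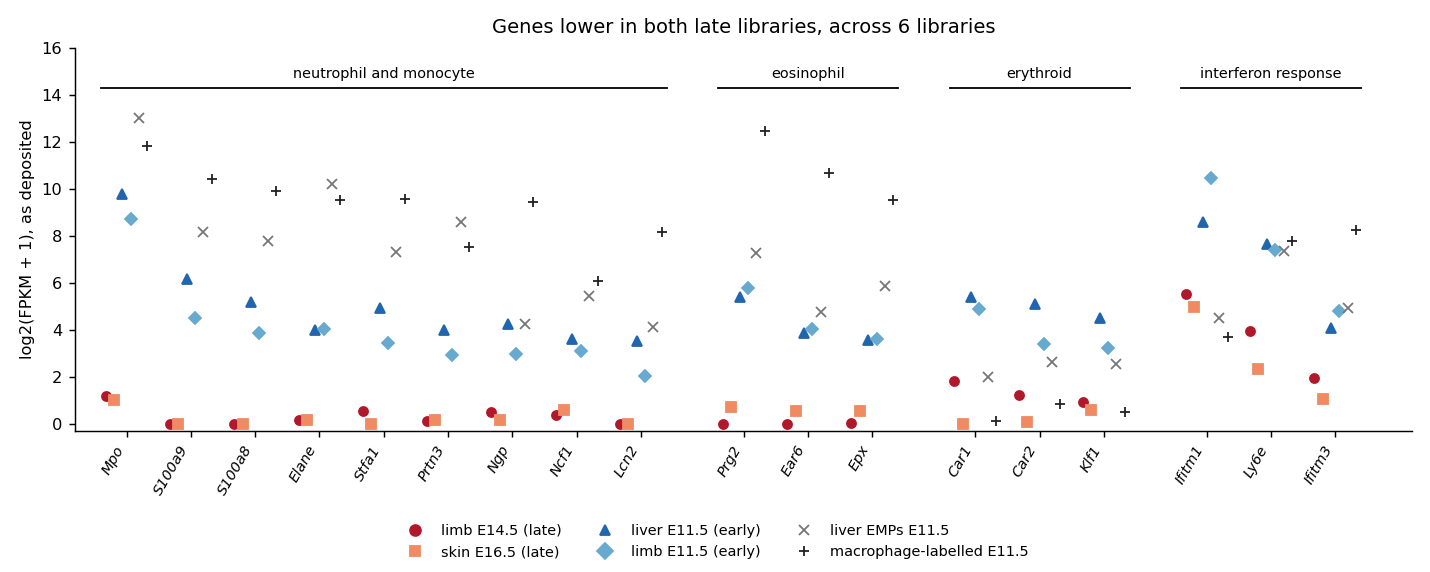
FPKM as log2(FPKM + 1) of genes lower in both late libraries (horizontal), with a symbol for each of the 6 libraries. The late symbols lie lowest for the neutrophil, monocyte and eosinophil genes drawn, and liver EMPs or the library labelled macrophages lie above the early libraries for most of these, whereas Car1, Car2, Klf1 and Ifitm1 are highest in the early libraries.

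Transcription factors of early haematopoiesis were lower late more often than higher. Of 25 tested of 54 in the table, 5 were lower and 1, Meis2, was higher, with a median of −0.81. Nfe2, a factor of erythroid and platelet genes, read 0.56 and 0.42 FPKM in limb E14.5 and skin, against 20.7 and 9.17 in liver and limb E11.5. Gfi1b, a repressor of erythroid and megakaryocyte cells, read 0.92 and 0 against 18.7 and 7.61, and Lmo2, a bridging protein of the same complexes, 0.12 and 0.29 against 29.2 and 2.53. Runx1, needed for the emergence of blood progenitors, read 6.02 and 2.53 against 20.3 and 28.5. For Nfe2, Gfi1b and Lmo2 liver was the higher early library, while for Runx1 the early pair was closer. Without liver, Nfe2, Gfi1b, Lmo2 and Klf1 fell under the filter, with gaps of 2.32, 2.07, 1.05 and 2.08, and Runx1 alone of the 5 was still counted. Gata2, a factor of progenitors and mast cells, was not apart, with 142 in limb E14.5 and 0 in skin, against 16.9 in liver and 66.2 in limb E11.5. A listed value of 0 in skin need not mean absence, since widely used genes such as Ldb1 were listed at 0 there too. Gata1 read 12.3 and 2.95 against 14.9 and 16.3. Mitf, the factor of mast cell maturation, lay under the filter at 8.94 and 2.34 against 0.30 and 0.95, and was apart as higher only when the filter was dropped. Meis2 read 26.3 and 9.89 against 1.5 and 9.12 and was not apart on unscaled FPKM or TPM. Of 13 progenitor and fetal genes tested only Angpt1 was apart, lower at 4.45 and 0.03 against 15.1 and 22.7. Cd34, a progenitor surface protein, read 54.6 and 3.86 against 22.3 and 55.1, and Hmga2, a fetal chromatin protein, 19.98 and 20.3 against 28.0 and 44.2.

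Adhesion and homing genes were lower in 5 of 17 tested and higher in 1, Itga9, with a median of −1.60. Itgb2, the shared beta chain of the leukocyte integrins, read 14.51 and 3.36 FPKM in limb E14.5 and skin, against 35.5 and 31.0 in liver and limb E11.5, and its partner Itgal 6.33 and 1.54 against 17.5 and 22.5. Itgam, given above, is a further partner of Itgb2. Cxcr4, the receptor for the niche chemokine CXCL12, read 0.78 and 0.06 against 14.3 and 3.26. Of the lower genes named here, only Itgam remained apart with a pseudocount of 5. Itgb7, the integrin chain with which mast cell progenitors enter tissue, read 16.4 and 1.39 against 10.4 and 18.5 and was low in skin alone. Itga4, its partner, read 90.1 and 11.9 against 76.5 and 80.5. Ccr8, a chemokine receptor, read 222 and 12.9 against 1.23 and 46.9 and was not apart.

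Of 12 tested genes of antigen presentation and interferon response, 3 were lower late, Ifitm1, Ifitm3 and Ly6e, and none higher. Ifitm1 read 45.4 and 30.3 FPKM in limb E14.5 and skin, against 387 in liver and 1393 in limb E11.5. It was low in EMPs (21.7) and in the library labelled macrophages (11.9), so that its highest levels among the 6 libraries were in the early mast lineage. Ifitm3 read 2.84 and 1.05 against 15.95 and 27.0, and Ly6e, an interferon-induced membrane protein, 14.49 and 4.05 against 202 and 165. Ifitm2, of the same family as Ifitm1 and Ifitm3, was not apart, at 526 and 196 against 485 and 917. Other interferon response genes of the list, such as Isg15, Ifit1 and Mx1, lay under the filter, at 0.96 FPKM or less in the 4 libraries. B2m, of antigen presentation, was not apart, at 112 and 495 against 200 and 142. The 3 lower genes thus do not stand for the interferon response as a whole. The separation of Ly6e was 3.50 and its level was similar in liver and limb. Genes of other roles with wide gaps followed. Ctse, cathepsin E, read 14.4 and 6.02 against 175 in both early libraries, Atp1b2, a sodium pump subunit, 2.26 and 0.30 against 38.6 and 31.7, and Apoe 3.23 and 4.28 against 70.4 and 57.2. S100a10, a partner of annexins, read 10.9 and 8.39 against 93.6 and 77.6.

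The remaining lists held few genes that were apart. Ifngr1, a chain of the interferon gamma receptor, was the 1 of 9 cytokine receptors tested that was lower, at 7.03 and 4.60 FPKM in limb E14.5 and skin, against 33.3 and 20.5 in liver and limb E11.5. Hspa8, a constitutive chaperone, was the 1 of 27 heat shock and chaperone genes, at 378 and 124 against 880 and 853. Tmsb4x, thymosin beta, was with S100a10 the only pair of 25 S100, annexin and actin genes, at 175 and 53.2 against 402 and 421. F2r, a thrombin receptor, read 20.2 and 6.85 against 49.7 and 44.3 and was 1 of 6 genes tested of the megakaryocyte and platelet list. Cd3g, the 1 of 5 lymphoid genes, read 3.26 and 0.22 against 10.9 and 24.8. All of these were lower late. Among 31 lysosomal genes tested only Ids was higher and Ctsl lower, and of 14 transporters only Slc7a5 and Slc6a4 were apart. None of 10 heme and iron genes, 37 genes of the early secretory pathway and 4 of cholesterol synthesis was apart. Vessel and hepatocyte markers had 1 gene tested each, neither apart, and muscle and nerve markers had none.

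The higher and the lower genes differed in how they ran within a side. Of the 106 higher genes, 59 (55.7%) were also at least 2-fold higher in skin than in limb E14.5 on the scaled log2 scale, against 524 of all 3486 tested genes, and 10 (9.43%) were at least 2-fold lower, against 33.5%. At E11.5, 31 of them (29.2%) were at least 2-fold higher in limb than in liver, against 10.4% of all. In 65 of the 106 the order liver, limb E11.5, limb E14.5, skin held at every step. Of the 95 lower genes, 30 were lower at every step of that order. Of these 95, 3 were at least 2-fold higher and 28 lower in skin than in limb E14.5. The rule fixes the order between sides and leaves the order within each side open. The sets were still chosen on the same values, together with the FPKM filter. That choice can favour genes high or low in skin, so all tested genes are no neutral measure for these counts. The median FPKM of the lower genes was 2.47 in limb E14.5, which left skin little room to lie lower. Whether the order within a side differed beyond the choice of genes was not tested. The median annotated transcript length was 3377 bases for the higher genes, 2112 for the lower and 3042 for all tested genes.

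**Figure D5:**
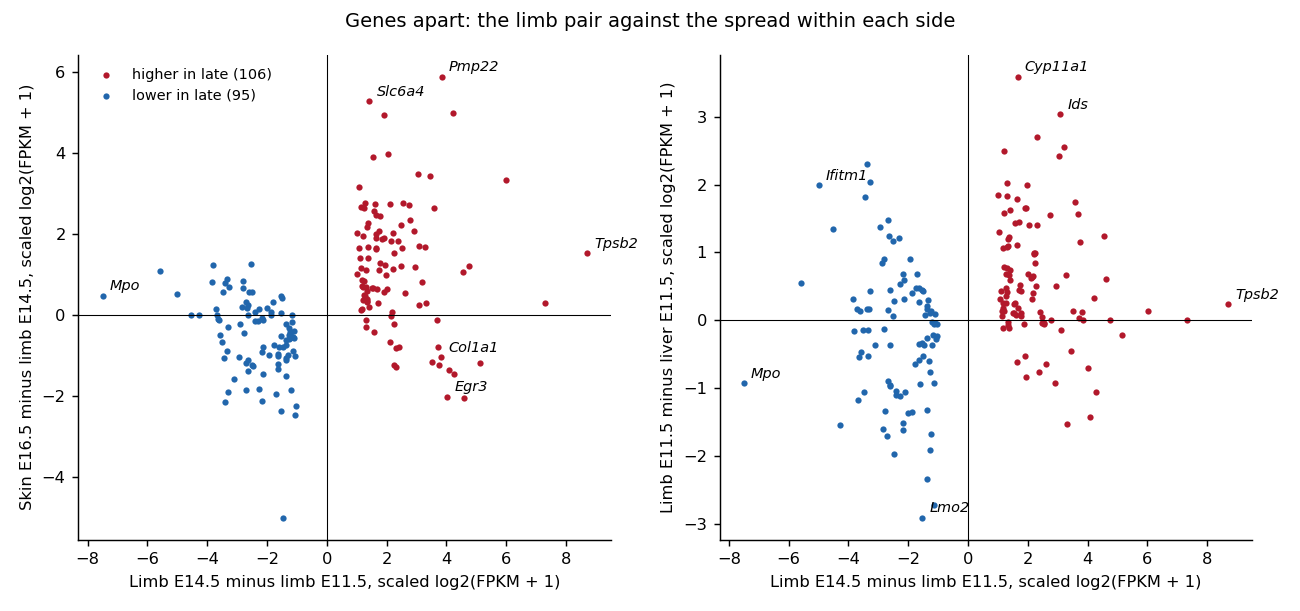
Each point is 1 of the 201 genes apart, with limb E14.5 minus limb E11.5 (horizontal) against skin minus limb E14.5 (left, vertical) and limb E11.5 minus liver (right, vertical), all as differences of scaled log2(FPKM + 1). Most red points of the left panel lie above 0, Slc6a4 and Pmp22 far above it, while the collagen gene Col1a1 and Egr3 lie below.

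Levels of the gene sets were also looked up in the libraries that the rule did not use. For 87 of the 106 higher genes the EMP level was at or below the higher early library, and none reached the lower late one. In the library labelled macrophages 70 were at or below the higher early library and 5 reached the lower late one. Of the 95 lower genes, 30 stood above both early libraries in EMPs and 45 in the library labelled macrophages. By library, the highest of the 6 scaled levels was in skin for 86 and in limb E14.5 for 19 of the higher genes. For the lower genes it was in the library labelled macrophages for 38, in EMPs for 8, in liver MCPs for 28 and in limb MCPs at E11.5 for 21. The sets were chosen by their late and early levels, and no such counts were made over all tested genes. These counts therefore describe the sets only. Of 102 higher genes with a position, 9 lay within 100000 bases of another higher gene, and of 92 lower genes 24 lay as close to another lower gene. Beside the proteases above, such runs held, among others, Prtn3 with Elane on chromosome 10 and Mpo with Epx on chromosome 11. S100a8 lay with S100a9 on chromosome 3, and Car1 with Car2 on the same chromosome. No such share was computed over all tested genes, so the counts of 9 and 24 have nothing to be read against.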

How the data were processed

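Bulk RNA of sorted cells was sequenced on an Illumina HiSeq, per the labels' protocols. The deposited values are FPKM for 6 libraries in 1 table, and the submitters' processing notes list Bowtie2, RSEM and the build mm10 (GRCm38), with versions not given in the sources. Of 17913 rows 4 with repeated date-like names were dropped, and 22 further date-like symbols were kept unnamed. All 6 columns matched a sample label. FPKM carries no depth, which was estimated from the steps between values over 1409 genes with a single transcript; this method was picked with the data in view and tested on simulated data.

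Size factors were medians of ratios to the geometric mean over 4873 genes that reached an FPKM of 1 in each of the 4 libraries, and a pseudocount of 1 was added before log2. The separation was computed with Python 3.11.15, NumPy 2.4.6 and pandas 2.3.3, and with no replicates no test was run. The calls were tested on simulated data. Of the names 17370 were found in GENCODE M21 of GRCm38.

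The compared libraries and all 37 gene lists were chosen with earlier results of these data known, so list counts are descriptions. Named were the 15 largest separations in each direction with values above 0 throughout, up to 6 members apart and the 3 most abundant others of each list, a fixed set of lineage genes and up to 5 genes listed at 0 on a side. Further list members and cell type markers were named after their values were seen. Not every gene that this rule covers is reported here. The 13 alternatives covered pseudocount, filter, scaling, threshold, genes listed at 0 and each library left out.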

Additional observations from a re-analysis of the deposited data

How the results depend on the processing

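The 106 higher and 95 lower genes became 68 and 45 with a pseudocount of 5, 59 and 27 with an FPKM of at least 30, 38 and 38 with a separation of at least 2, and 170 and 227 without the filter, when all 17909 genes were tested. Leaving out 1 library in turn gave 144 to 407 higher and 117 to 947 lower genes, the extremes of 407 and 947 without limb E14.5. A pseudocount of 0.1 (132 and 114), unscaled FPKM (92 and 104), TPM (124 and 117), size factors over 6 libraries (108 and 95) and leaving out genes listed at 0 (95 and 69) kept the counts within 1.5 times. Of the calls, 57 higher and 45 lower were made under every scaling and pseudocount. Of 90 named genes apart, none reversed under any of the 13 alternatives, while 40 were lost with an FPKM of at least 30, 31 with a separation of at least 2, 23 when genes listed at 0 were left out, 17 with a pseudocount of 5, 11 without liver and at most 7 under each of the others. The absence of reversals was all but fixed beforehand by the 2-fold gap that the rule asks for, so it carries little weight. No paired analysis was possible because each group has 1 library and no result comes from a test. The lists rest on few tested genes, and a value under about 0.2 FPKM is within what 3 fragments give.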
